A study of Mus musculus with 18 samples.

Results

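The comparison described here sets 3 libraries of mouse retinal pigment epithelium (RPE) labelled Mertk-/-V2Tyro3-/-V2 against 3 labelled Tyro3-/-V1, out of 18 libraries in the series. Both groups are Tyro3-/- by label, and the label of the first adds a Mertk-/- allele, so the contrast asks what that allele adds where Tyro3 is already lowered. The Tyro3 alleles carry different names, V2 and V1, and so may differ between the groups as well as Mertk does. The members are the 18682 of 55333 named genes whose normalized count reached 10 in 3 or more of the 6 libraries. Of these, 16705 reached that level in all 6 libraries, 74 were kept only through all 3 libraries labelled Mertk-/-V2Tyro3-/-V2 and 36 only through all 3 Tyro3-/-V1 libraries. The 639 genes kept in exactly 3 libraries had a median mean level of 10.6 normalized counts, and the 745 left out with exactly 2 had 8.43.

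The RPE was taken at postnatal day 25, 1 h after light onset, without treatment. Libraries from C57BL/6 mice of the same age and hour are quoted as a further level, from the 3 that share with the mutant libraries the mark 23 in their sample names. The labels give neither the origin of the V1 and V2 alleles, nor the strain or sex of the mutant mice, nor how many mice went into a library. Replicates are called biological, but the labels do not state that each is a separate animal, so p-values measure the spread between these libraries.

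The RPE is a pigmented epithelium behind the photoreceptors that swallows the tips of their outer segments each day, regenerates the visual chromophore and moves nutrients and ions between the choroid and the retina. Mertk, Tyro3 and Axl are the TAM receptor tyrosine kinases. Their ligands Gas6 and protein S (Pros1) bridge them to phosphatidylserine on the membrane to be engulfed, and in immune cells TAM signalling restrains innate immune responses. In rodents, loss of Mertk blocks outer segment uptake by the RPE and photoreceptors then degenerate.

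The 3 libraries labelled Mertk-/-V2Tyro3-/-V2 held 25385952, 30401422 and 28489661 reads, and the 3 Tyro3-/-V1 libraries held 26962515, 30154428 and 25073575. RPE genes were abundant in every library, with Rlbp1, a retinoid carrier, at 35010.4 to 61335 normalized counts in libraries labelled Mertk-/-V2Tyro3-/-V2 and 63227 to 85268 in Tyro3-/-V1. Transcripts of neighbouring tissues were also present in every library. Replicate 3 labelled Mertk-/-V2Tyro3-/-V2 stood apart: it lay at 94.6 on the first principal component, which held 59.5% of the variance of the 6 libraries, while the others lay between −63.9 and 16.8. It also held the highest summed levels of 29 rod, 15 cone and 24 lens markers.

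Mertk (GRCm38 chromosome 2, 128698956 to 128802894) was not lower in libraries labelled Mertk-/-V2Tyro3-/-V2. It had 3222, 4113 and 2894 normalized counts there, against 2585, 3507 and 4363 in Tyro3-/-V1, and 3291, 3924 and 3381 in C57BL/6. The groups overlapped, with a log2 fold change of −0.01 (95% interval −0.43 to 0.40, limma adjusted p = 0.972, two-sided exact permutation p = 1). Counts over a whole gene do not show whether part of its transcript is missing, and each group is therefore called by its label.

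Tyro3 (chromosome 2, 119797733 to 119818104) was well below the C57BL/6 level in both groups. It had 1777, 1904 and 1433 normalized counts in libraries labelled Mertk-/-V2Tyro3-/-V2, against 1269.5, 1183 and 1423 in Tyro3-/-V1, which are 44.9% and 34.1% of the C57BL/6 mean. The lowest library of the first group lay just above the highest of the second. The log2 difference of 0.39 ± 0.12 (SE) missed the threshold (limma adjusted p = 0.254). An exact permutation p of 0.1 was found, which is the smallest that 3 against 3 libraries can give. Axl, the remaining TAM receptor, had 2245, 2371 and 1735 against 1647, 1828 and 1965, with overlapping groups (log2 0.21, limma adjusted p = 0.418). None of the 12 tested TAM receptors, ligands and related engulfment genes passed. Gas6 was at 6641, 6910.3 and 6237 normalized counts in libraries labelled Mertk-/-V2Tyro3-/-V2 against 5487, 5856 and 5998 in Tyro3-/-V1, without overlap but with a log2 difference of only 0.19 (limma adjusted p = 0.365). Pros1 and Mfge8, a bridging ligand for integrins, overlapped between the groups.

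Across all genes tested, 27 passed, 8 higher and 19 lower in libraries labelled Mertk-/-V2Tyro3-/-V2 (limma, Benjamini-Hochberg adjusted p below 0.05), which is 0.145% of 18682. In all, 2607 genes, 14%, had an unadjusted p below 0.05, and 11.1% of genes were higher and 7.22% lower with no overlap between the groups. The same 27 passed in the same direction with edgeR, which called 13 higher and 22 lower (0.0696% and 0.118%), and with DESeq2, which called 423 higher and 252 lower of the 16860 genes it adjusted (2.51% and 1.49%). Both were fitted, as limma was, to all 12 libraries with C57BL/6 included, so they are not independent of it. The median log2 fold change over all genes tested was −0.01. Of the 27, 3 had reached the minimum level only through the group where they are high, and so had to differ: Gm3650 and Olfr570 through Tyro3-/-V1 and Pla2g4b through the libraries labelled Mertk-/-V2Tyro3-/-V2. With only the 6 libraries compared, without C57BL/6, 2 genes passed, Gm3650 and Eif3j2. Without replicate 1, 2 or 3 of Tyro3-/-V1, 6, 3 and 8 genes passed, and without replicate 1 labelled Mertk-/-V2Tyro3-/-V2, 9 did. Without C57BL/6 replicate 6 it was 12 genes, and the other left-out libraries gave 18 to 36.

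**Figure D1:**
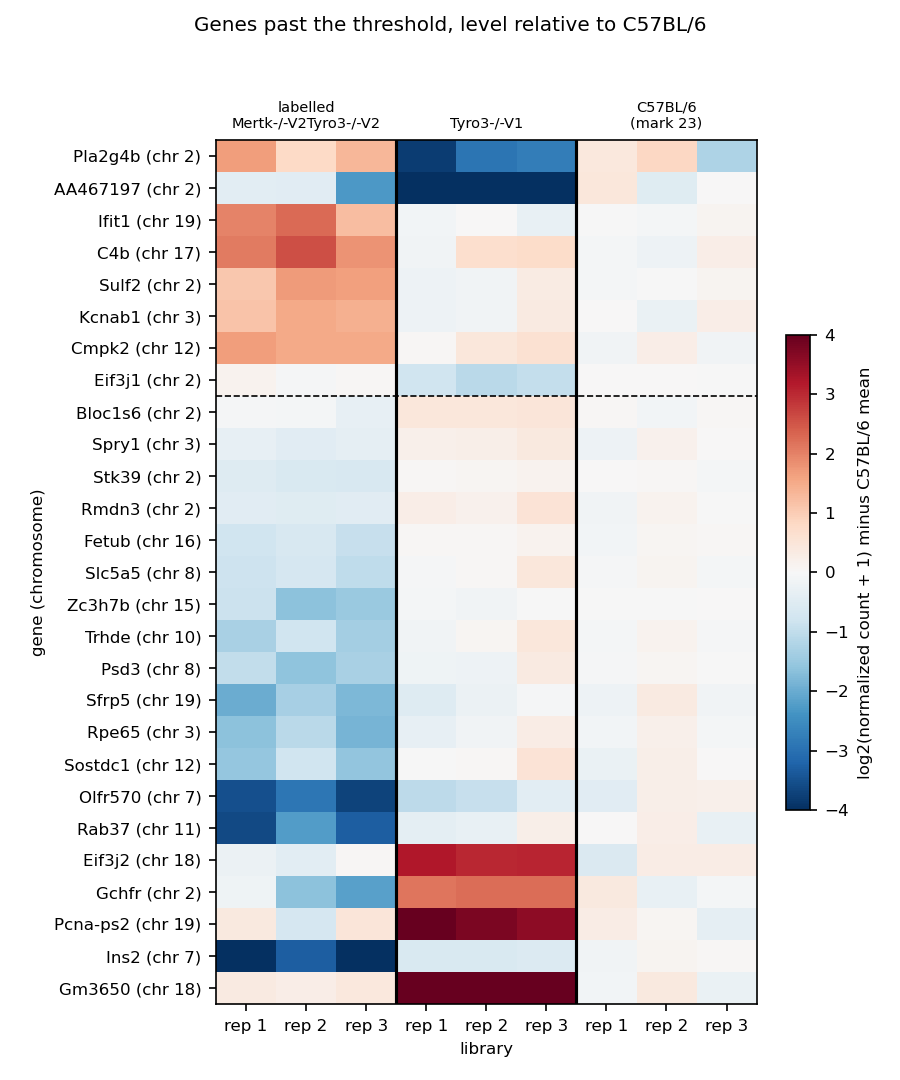
Level of the 27 genes that passed (rows, with their chromosome) in each library (columns), as log2 of the normalized count plus 1 minus the mean of the 3 C57BL/6 libraries with the mark 23; colours are capped at 4 in either direction. The 8 genes above the dashed line were higher and the 19 below it lower in libraries labelled Mertk-/-V2Tyro3-/-V2, and for some rows the Tyro3-/-V1 libraries, not the others, are the ones away from C57BL/6.

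Set beside C57BL/6, the 27 genes fell into 2 kinds. For 19 of them, 5 higher and 14 lower, the C57BL/6 mean was nearer to Tyro3-/-V1 than to the libraries labelled Mertk-/-V2Tyro3-/-V2, as for Ifit1, C4b, Rpe65 and Rab37. Nearer does not mean equal: Ins2 in Tyro3-/-V1 was below all 3 C57BL/6 libraries, and the C57BL/6 means of Rmdn3 and Spry1 lay about midway, at 1266 between 919 and 1588 and at 1008 between 770 and 1219. For the other 8, 3 higher and 5 lower, the C57BL/6 mean was nearer to the libraries labelled Mertk-/-V2Tyro3-/-V2. These were Eif3j1, Pla2g4b, AA467197, Eif3j2, Gm3650, Pcna-ps2, Gchfr and Bloc1s6.

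Rpe65 (GRCm38 chromosome 3, 159599175 to 159625321), the isomerase that makes 11-cis retinol for the visual pigments, fell in libraries labelled Mertk-/-V2Tyro3-/-V2. It had 29656, 43865 and 25232 normalized counts there, against 73848, 83063 and 112250.0 in Tyro3-/-V1, and 85450.5, 105278 and 87327 in C57BL/6. Every library of the first group lay far below every library of both others. The level was 2.76-fold lower than in Tyro3-/-V1 (log2 −1.46 ± 0.23, SE, n = 3 each, limma adjusted p = 0.0387). In bulk tissue, fewer RPE cells and less RNA per RPE cell cannot be told apart.

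Rpe65 was the only one of 22 visual cycle genes to pass, beside 0.102% of all genes called lower, and no member was called higher. With Rpe65, 11 members were lower at an unadjusted p below 0.05, beside 5.63% of all genes. Without overlap between the groups, 10 were lower and 3 higher, beside 7.22% and 11.1% of all genes. The median log2 fold change was −0.28. The members of next smallest p, chosen after their values were seen, act in the RPE. Rdh10, a retinol dehydrogenase, had 29190.3, 37932 and 26022 normalized counts in libraries labelled Mertk-/-V2Tyro3-/-V2, against 45961, 51468 and 62929 in Tyro3-/-V1 (log2 −0.79, limma adjusted p = 0.149). Ttr, the carrier of retinol-binding protein and thyroxine, had a log2 fold change of −0.83 (adjusted p = 0.159). Lrat, which esterifies retinol, was at −0.59 (adjusted p = 0.214) and Rlbp1 at −0.66 (adjusted p = 0.26). Of members made by photoreceptors, Rbp3, the retinoid carrier of the interphotoreceptor matrix, had 12209, 8884 and 27729 against 7437, 7144 and 10018. Rdh12, a photoreceptor retinol dehydrogenase, had 721, 656 and 2115 against 550.3, 589.6 and 571 (log2 0.81, adjusted p = 0.527). In both the high value was in replicate 3 labelled Mertk-/-V2Tyro3-/-V2, the library that stood apart, and the Rbp3 groups overlapped. Rpe65 passed in 13 of 28 alternatives. It missed the threshold without replicate 3 labelled Mertk-/-V2Tyro3-/-V2 (adjusted p = 0.0851) and without 9 of the other 11 libraries (up to 0.166).

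The other differentiated functions of the RPE gave a mixed picture. Of 44 transport, junction and secreted genes none passed with limma. In that list 18 were lower and 5 higher at an unadjusted p below 0.05 (background 5.63% and 8.33%). DESeq2 called 8 lower and 1 higher (background 1.49% and 2.51%). Enpp2, the secreted enzyme that makes lysophosphatidic acid, came closest, at 38611, 56261 and 38427 normalized counts in libraries labelled Mertk-/-V2Tyro3-/-V2 against 79591, 103527 and 124651 in Tyro3-/-V1 (log2 −1.21, limma adjusted p = 0.0562). Slc16a1, the lactate transporter MCT1, had 15759.8, 21488 and 15663 against 25632, 29312 and 35891 (log2 −0.78, adjusted p = 0.123). Htra1, a secreted serine protease, went the other way, with 3930.4, 4057 and 4769.7 against 2733, 2562 and 2739.8 (log2 0.66, adjusted p = 0.0594). The 21 melanin and melanosome genes had a median log2 fold change of −0.06, with Tyrp1, a melanin synthesis enzyme, at 0.15 (adjusted p = 0.74) and Pmel, the fibril protein of the melanosome, at 0.29 (adjusted p = 0.529). Otx2, a transcription factor of RPE identity, was at −0.33 (adjusted p = 0.393), and Mitf, the master factor of pigment cells, at −0.10 (adjusted p = 0.804).

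**Figure D2:**
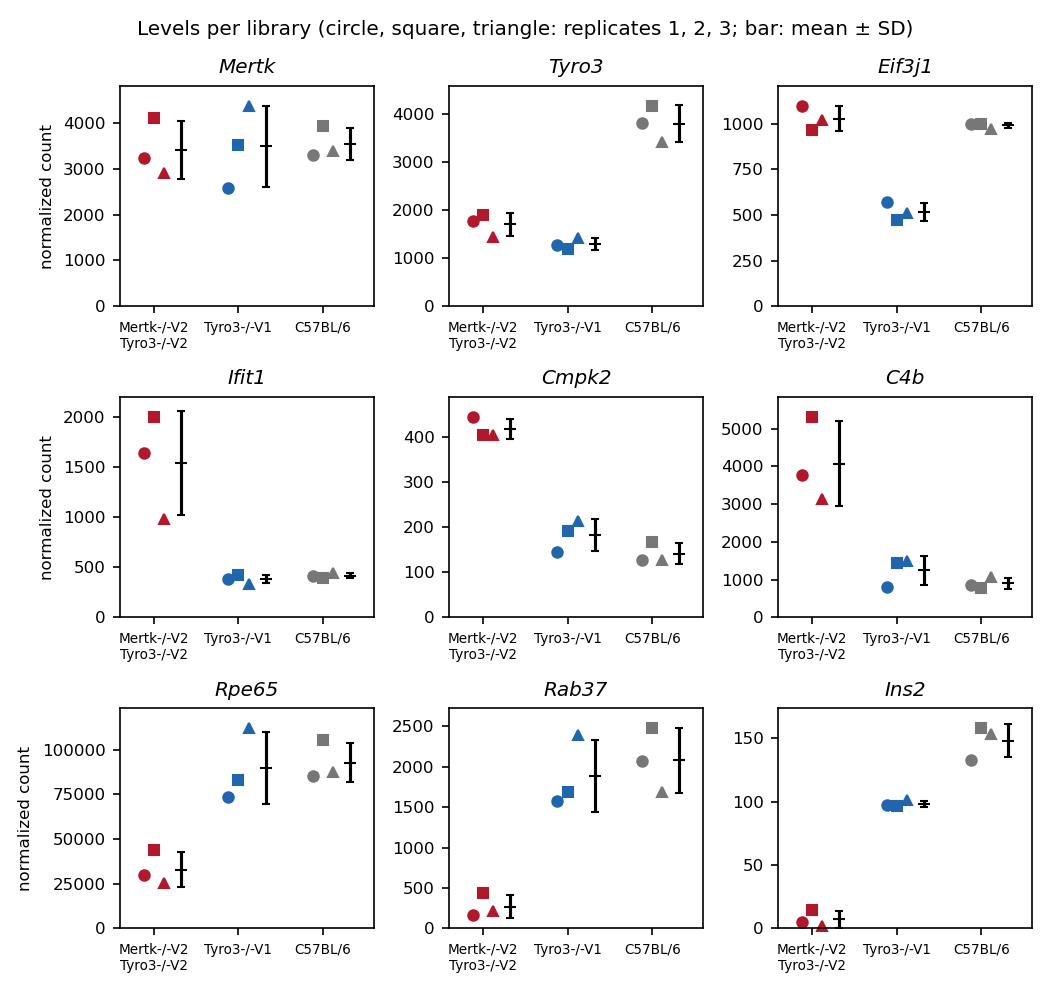
Normalized counts of 9 genes in each library, with the mean and SD (n = 3) beside the points; all axes start at 0. Mertk overlaps between the groups, Tyro3 is low in both mutant groups, and Rpe65, Rab37 and Ins2 in libraries labelled Mertk-/-V2Tyro3-/-V2 sit below all 6 other libraries shown.

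Secreted signals and a secretory GTPase were among the falls. Ins2 (chromosome 7), an insulin gene, had 5.01, 14.2 and 1.70 normalized counts in libraries labelled Mertk-/-V2Tyro3-/-V2, against 97.3, 97.0 and 101 in Tyro3-/-V1 and 133, 158 and 154 in C57BL/6. The groups were far apart, a 15.9-fold fall (log2 −3.99 ± 0.47, SE, limma adjusted p = 0.0142; up to 0.328 over the alternatives, 22 of 28 of which it passed), while the paralog Ins1 was at 0 in every library of these groups. Rab37 (chromosome 11), a small GTPase of secretory vesicles, had 166, 432 and 209 against 1579, 1686 and 2398, and 2072, 2481 and 1685 in C57BL/6. It fell 7.49-fold (log2 −2.90 ± 0.31, adjusted p = 0.00856). Cd300lf overlaps Rab37 on the opposite strand and the use of strand in counting is not given in the sources used here.

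Among inhibitors of Wnt and BMP signalling, Sfrp5 and Sostdc1 fell as well. Sfrp5, a secreted Wnt antagonist, had 419, 664 and 485 normalized counts in libraries labelled Mertk-/-V2Tyro3-/-V2 against 1168, 1422 and 1603 in Tyro3-/-V1 (log2 −1.43 ± 0.19, limma adjusted p = 0.0206). Sostdc1, a secreted antagonist of BMP and Wnt ligands, had 1137, 1913 and 1101 against 3274, 3442 and 4802 (log2 −1.50 ± 0.22, adjusted p = 0.032). Neither gene had overlapping groups. Sostdc1 was not in the list of insulin, Wnt, BMP and lysophosphatidic acid signalling. Of its 31 tested genes, Ins2 and Sfrp5 were the 2 called lower, beside 0.102% of all genes, and none was called higher. The list was mixed, with 10 lower and 6 higher at an unadjusted p below 0.05, beside 5.63% and 8.33% of all genes. Its median log2 fold change was −0.11. Just beyond the threshold in that list were Lpar3, a lysophosphatidic acid receptor, with 66.1, 65.2 and 40.9 against 175, 137 and 169.9 (log2 −1.49, adjusted p = 0.0562), and Igf2, a growth factor (log2 −1.31, adjusted p = 0.0582), both picked after their values were seen. Without replicate 3 labelled Mertk-/-V2Tyro3-/-V2 the list's median was 0.01.

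Further falls had no theme fixed for them. Psd3, an exchange factor for the GTPase Arf6, had 1925, 1238 and 1558 normalized counts in libraries labelled Mertk-/-V2Tyro3-/-V2 against 3399, 3328 and 4949.9 in Tyro3-/-V1 (log2 −1.30, limma adjusted p = 0.0199). Trhde, an ectoenzyme that degrades thyrotropin-releasing hormone, had 1030.0, 1432 and 984 against 2269.8, 2660.2 and 3415 (log2 −1.28, adjusted p = 0.0177). Zc3h7b, a zinc finger protein, had 2342, 1369 and 1498 against 4032, 3883 and 4202 (log2 −1.26, adjusted p = 0.0177). In each the groups stayed well apart, and the 3 C57BL/6 libraries lay among or close to the Tyro3-/-V1 values. Among those outside the rule for named genes was Slc5a5, the sodium-iodide symporter, at 488, 548 and 435 against 842, 903 and 1211 (log2 −0.99, adjusted p = 0.0259). Stk39, a kinase that regulates chloride cotransporters, was at −0.67, Spry1, an inhibitor of receptor tyrosine kinase signalling, at −0.66, Fetub, a secreted protease inhibitor, at −0.86, and the olfactory receptor gene Olfr570, kept only through Tyro3-/-V1, had under 10 normalized counts in each library labelled Mertk-/-V2Tyro3-/-V2.

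Interferon-induced transcripts made up 2 of the 8 rises. Ifit1 (chromosome 19, 34640871 to 34650009), which binds RNA lacking the host cap methylation, had 1639, 1996 and 978 normalized counts in libraries labelled Mertk-/-V2Tyro3-/-V2 against 383, 420.3 and 336 in Tyro3-/-V1, and 408, 392 and 443 in C57BL/6. The rise was 3.89-fold (log2 1.96 ± 0.24, SE, limma adjusted p = 0.0143). Cmpk2 (chromosome 12, 26469204 to 26479837), a mitochondrial nucleotide kinase induced by interferon, had 444, 404 and 405 against 144, 191 and 214, and 127, 168 and 127 in C57BL/6 (log2 1.20 ± 0.17, adjusted p = 0.0259). Every library of the first group lay above all of the others for both genes. In the 6 fits without 1 of the compared libraries, Ifit1 passed in 2 and Cmpk2 in 0. Oas1g, of the family that senses double-stranded RNA, just missed the threshold with 93.2, 82.7 and 46.8 against 18.9, 15.3 and 19.8 (log2 1.93, adjusted p = 0.0562), and reads may be shared with its close relative Oas1a.

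The promoter windows of these 3 genes are shown because interferon-induced genes are bound through a repeated element; capitals mark matches to the core of the interferon-stimulated response element, 2 copies of GAAA separated by any 2 bases, searched on both strands. The windows, from RefSeq on GRCm38.p6, run from 250 bases before to 50 after the annotated start, 5′ to 3′ on the gene's strand.
Ifit1, chr19:34640639-34640938, plus strand: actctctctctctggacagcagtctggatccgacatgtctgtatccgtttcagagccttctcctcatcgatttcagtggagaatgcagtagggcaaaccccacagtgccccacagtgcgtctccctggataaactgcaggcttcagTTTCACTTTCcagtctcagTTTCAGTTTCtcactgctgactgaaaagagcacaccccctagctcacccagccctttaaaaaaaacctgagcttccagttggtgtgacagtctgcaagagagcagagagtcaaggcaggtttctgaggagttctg
Oas1g, chr5:120887564-120887863, minus strand: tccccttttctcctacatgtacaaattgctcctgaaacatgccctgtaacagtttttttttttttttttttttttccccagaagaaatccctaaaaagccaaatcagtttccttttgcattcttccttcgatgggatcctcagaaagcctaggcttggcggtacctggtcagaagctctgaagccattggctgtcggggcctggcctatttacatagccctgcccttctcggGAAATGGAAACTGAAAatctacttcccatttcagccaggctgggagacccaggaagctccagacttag
Cmpk2, chr12:26468965-26469264, plus strand: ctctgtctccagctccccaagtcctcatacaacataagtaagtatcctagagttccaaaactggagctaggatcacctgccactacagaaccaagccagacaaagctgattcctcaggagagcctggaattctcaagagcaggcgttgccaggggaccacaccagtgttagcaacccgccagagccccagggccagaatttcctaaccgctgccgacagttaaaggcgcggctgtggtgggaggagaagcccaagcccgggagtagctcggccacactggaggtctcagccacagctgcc
Ifit1 held 2 matches, the first beginning at base 147 and the last at base 166 of the window, both read from the opposite strand. Oas1g held 2 matches that overlap each other, beginning at bases 233 and 239, and Cmpk2 held 0. Of the type I interferon list, 31 tested genes had a window in the table and 15 of them, 48.4%, held the sequence in at least 1 window, beside 3.72% of the 12788 tested genes with a window. A match describes these letters only.

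Of 43 type I interferon response genes, Ifit1 and Cmpk2 were called and none fell, beside 0.0428% of all genes called higher. In all 25 were higher at an unadjusted p below 0.05, beside 8.33% of all genes. Of the 43, 19 were higher without overlap between the groups, beside 11.1% of all genes, and 38 had a log2 fold change above 0. The median was 0.61. Among those that missed, picked after their values were seen, were Ifi44, with 364, 389 and 152 normalized counts in libraries labelled Mertk-/-V2Tyro3-/-V2 against 59.6, 82.5 and 46.9 in Tyro3-/-V1 (log2 2.16, limma adjusted p = 0.0638), and Mx1, an antiviral GTPase, with 191, 78.5 and 137 against 22.8, 41.7 and 28.1 (log2 2.05, adjusted p = 0.077). Stat2, a signalling factor of the pathway, was at 0.61 (adjusted p = 0.139). DESeq2 called 19 members higher and edgeR 3, beside 2.51% and 0.0696% of the genes each tested. With limma the count was 10 without replicate 3 labelled Mertk-/-V2Tyro3-/-V2, where 29 of all 18682 genes passed. It was 0 without replicate 1 of that group or any 1 Tyro3-/-V1 library, and 1 without C57BL/6 replicate 1, 3, 5 or 6.

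The mean log2 level of the 43 tested interferon genes was 9.69, 9.29 and 8.58 in replicates 1, 2 and 3 labelled Mertk-/-V2Tyro3-/-V2. It was 8.62, 8.59 and 8.16 in Tyro3-/-V1, and 8.51, 8.35 and 8.35 in C57BL/6. The lowest library of the first group thus lay within the Tyro3-/-V1 range. Markers of the ocular surface epithelium followed the same order of libraries within both groups, at 12.7, 11.7 and 10.2 against 12.5, 12.2 and 10.9. They stood at 12.8, 12.4 and 12.7 in C57BL/6, where the interferon levels lay within the Tyro3-/-V1 range. None of these 25 tested markers passed, and their median log2 fold change was −0.56. Microglia and macrophage markers averaged 7.16, 7.25 and 7.42 against 7.25, 6.89 and 7.26. Their part in the interferon result was not tested beyond a fit with the microglia level as a covariate, under which 12 genes passed in all.

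The interferon gamma-induced GTPases and antigen presentation genes gave 0 calls with limma among 35 tested. In that list 14 were higher and 2 lower at an unadjusted p below 0.05 (8.33% and 5.63% of all genes). There were 0 calls with edgeR and 8 higher with DESeq2 (2.51% of the genes it adjusted). The median log2 fold change of the 35 was 0.23. Irgm2, an immunity-related GTPase, had 689, 767 and 516 normalized counts in libraries labelled Mertk-/-V2Tyro3-/-V2 against 359, 385 and 392 in Tyro3-/-V1 (log2 0.78, limma adjusted p = 0.0751), and its relative Igtp had 401, 489.5 and 366 against 179.8, 255 and 241 (log2 0.90, adjusted p = 0.077). The MHC class II genes Cd74 and H2-Aa were each at −0.47 (adjusted p = 0.304 and 0.336), and B2m, the light chain of MHC class I, was at 0.45 (adjusted p = 0.268), all 3 chosen after their values were seen. Of the 34 microglia and macrophage markers, 23 had a log2 fold change above 0 and none passed, with a median of 0.25.

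C4b (chromosome 17, 34728380 to 34743882), a component of the classical complement pathway, rose 3.31-fold. It had 3783, 5311 and 3133 normalized counts in libraries labelled Mertk-/-V2Tyro3-/-V2 against 809.6, 1431 and 1489.8 in Tyro3-/-V1, and 854, 777 and 1073 in C57BL/6, without overlap (log2 1.73 ± 0.25, SE, limma adjusted p = 0.0259). Its near-identical neighbour C4a had at most 66.4 normalized counts in any of these libraries and was not called (log2 0.21, adjusted p = 0.734), and the sum of both was 4125 ± 1116 against 1284 ± 376 (SD, n = 3 each). C4b was the 1 of 24 tested complement genes to pass, beside 0.0428% of all genes called higher, and the list's median was 0.25. Cfi, a protease that cleaves C4b and C3b fragments, had 64.1, 113 and 57.9 against 17.9, 18.7 and 31.3 (log2 1.73, adjusted p = 0.107). C3, the central component, overlapped between the groups (log2 0.47, adjusted p = 0.581). The microglial products C1qa, C1qb and C1qc had log2 differences of 0.46, 0.54 and 0.67, none past the threshold. Over the 28 alternatives the adjusted p of C4b ran up to 0.328, and it missed the threshold without 5 of the 6 libraries compared.

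Of 26 genes that act in JAK-STAT3 signalling or mark retinal stress, 0 passed with limma or edgeR. At an unadjusted p below 0.05, 11 were higher and 0 lower, beside 8.33% and 5.63% of all genes. DESeq2 called 8 higher, beside 2.51% of the genes it adjusted. The median of the list was 0.53 (log2). A2m, a protease inhibitor of the acute phase, had 23888, 35476 and 21651 normalized counts in libraries labelled Mertk-/-V2Tyro3-/-V2 against 9416, 12204 and 15497 in Tyro3-/-V1 (log2 1.12, limma adjusted p = 0.0754). Socs3, the feedback inhibitor of this pathway, had 384, 362 and 427 against 248, 208 and 194 (log2 0.85, adjusted p = 0.077). Edn2, an endothelin made by stressed photoreceptors, had 68.1, 57.6 and 196 against 19.9, 7.66 and 8.34 (log2 2.96, adjusted p = 0.143), with its highest value in replicate 3, and was picked after its values were seen. Gfap, the glial stress marker, overlapped widely (log2 0.10, adjusted p = 0.933).

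**Figure D3:**
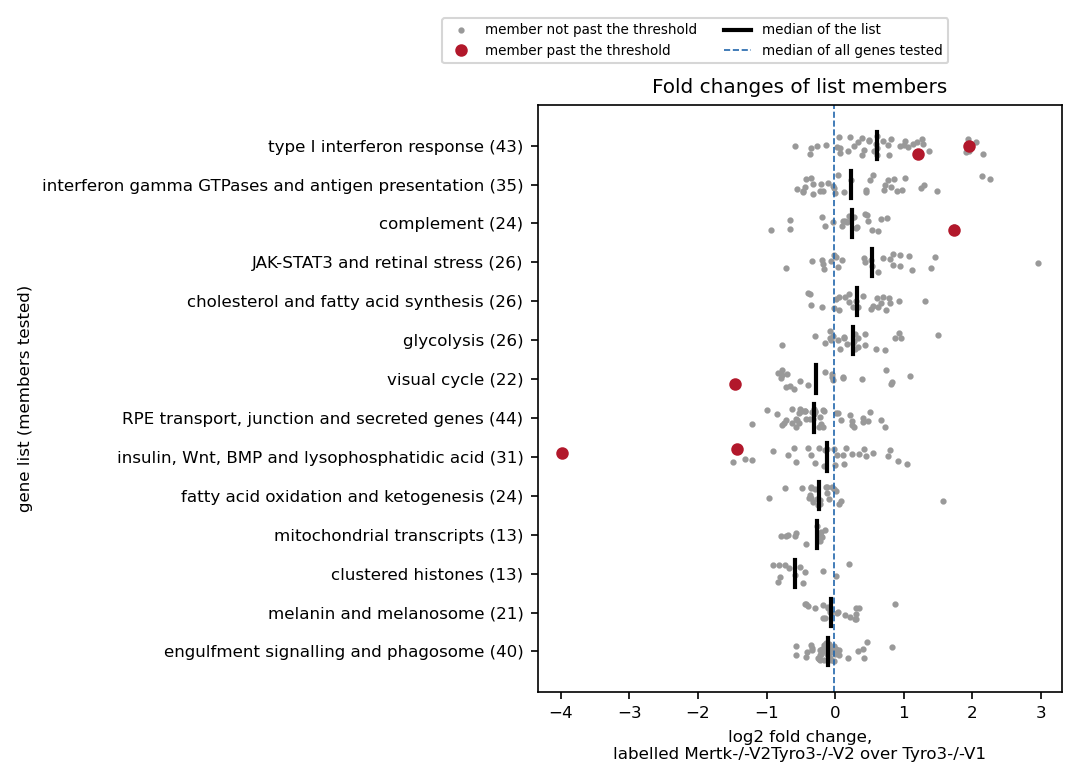
Log2 fold change of each tested member of 14 gene lists, with the list's median as a black bar and the median of all genes tested as a dashed line; red points passed the threshold. The type I interferon list has the highest median, 0.61, and the clustered histones the lowest, −0.59.

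Sulf2 and Kcnab1 also rose. Sulf2, which trims sulfate from heparan sulfate outside the cell, had 934, 1439 and 1361 normalized counts in libraries labelled Mertk-/-V2Tyro3-/-V2 against 384, 399 and 556 in Tyro3-/-V1 (log2 1.47 ± 0.20, limma adjusted p = 0.0201). Kcnab1, a beta subunit of voltage-gated potassium channels, had 1102, 1436 and 1330.2 against 433, 457 and 636 (log2 1.35 ± 0.20, adjusted p = 0.0259). The adjacent nicotinic acetylcholine receptor genes Chrna3 and Chrnb4 on chromosome 9 just missed the threshold (adjusted p = 0.0537 each). Chrna3 had 139, 191 and 186 against 28.8, 30.6 and 62.6, and Chrnb4 had 2057, 2858 and 2100.0 against 988, 1167 and 1454. None of these 4 had overlapping groups, and their C57BL/6 levels were close to those of Tyro3-/-V1.

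Of 26 genes of cholesterol and fatty acid synthesis, 0 passed with limma, and 13 were higher and 3 lower at an unadjusted p below 0.05, beside 8.33% and 5.63% of all genes. EdgeR called 1 higher, beside 0.0696% of all genes. DESeq2 called 12 higher and 1 lower, beside 2.51% and 1.49% of the genes it adjusted. The median log2 fold change was 0.32. Hmgcs1, which makes the precursor of mevalonate, had 7296, 8954 and 8024 normalized counts in libraries labelled Mertk-/-V2Tyro3-/-V2 against 5268, 4922 and 4682 in Tyro3-/-V1, and 6162, 5722 and 6511 in C57BL/6 (log2 0.70, limma adjusted p = 0.0563). Lss, lanosterol synthase, had 2208, 2449 and 2401 against 1658, 1622 and 1359, and 2185, 2032 and 2406 in C57BL/6 (log2 0.61, adjusted p = 0.0751). For Lss the C57BL/6 libraries thus lay with the libraries labelled Mertk-/-V2Tyro3-/-V2, and the mean level of the whole list did too, at 11.5, 11.6 and 11.4 against 11.2, 11.1 and 11.0, with 11.5, 11.5 and 11.6 in C57BL/6. Without C57BL/6 replicate 4, 3 members passed, where 33 of all 18682 genes did.

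The 24 fatty acid oxidation and ketogenesis genes had 0 calls with limma or edgeR and a median of −0.24. DESeq2 called 3 lower, beside 1.49% of the genes it adjusted. In the list 9 were lower and 1 higher at an unadjusted p below 0.05, beside 5.63% and 8.33% of all genes. Angptl4, a secreted inhibitor of lipoprotein lipase, had 543, 469 and 628 normalized counts in libraries labelled Mertk-/-V2Tyro3-/-V2 against 802, 1108 and 1343 in Tyro3-/-V1 (log2 −0.97, limma adjusted p = 0.192). The groups did not overlap for this gene.

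A further set of called genes lies close to the targeted loci. Tyro3 and Mertk are on chromosome 2 with starts 8.90 Mb apart, and 6 of the 271 genes tested within 10 Mb of either passed, 2.21%, against 21 of 18411 genes elsewhere, 0.114%. One of the 6, Pla2g4b, had to differ once kept. All 6 lay between −0.66 and 2.94 Mb from the Tyro3 start, and they went in both directions, 3 higher and 3 lower. Of all 27 calls, 8 were on chromosome 2, the other 2 being Sulf2 and Stk39 outside these windows. That is 0.569% of the 1405 genes tested on chromosome 2, beside 0.145% of all genes and 3 of 568, 0.528%, on chromosome 19. A change near the locus because of neighbouring DNA carried with an allele and a response to the lost receptors cannot be told apart here. With only the 6 libraries compared 0 of these passed, and without Tyro3-/-V1 replicate 1, 2 or 3 the count was 1, 0 and 1. It was 2 and 3 without replicates 1 and 2 labelled Mertk-/-V2Tyro3-/-V2, and 3 without C57BL/6 replicate 3 or 6.

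Gchfr (chromosome 2, 119167773 to 119172390), the feedback regulator of tetrahydrobiopterin synthesis, had 27.1, 9.19 and 5.96 normalized counts in libraries labelled Mertk-/-V2Tyro3-/-V2, against 139, 147 and 149 in Tyro3-/-V1 and 40.1, 24.6 and 29.2 in C57BL/6. Here the Tyro3-/-V1 libraries were the high ones, with a difference of −3.54 ± 0.43 on the log2 scale (SE, limma adjusted p = 0.0143). Pla2g4b (chromosome 2, 120033417 to 120043030), a cytosolic phospholipase A2, had 43.1, 23.4 and 34.1 against 0.0, 0.851 and 1.04, with 17.7, 23.4 and 4.86 in C57BL/6. It was kept only through the libraries labelled Mertk-/-V2Tyro3-/-V2, so its 111 reads against 2 are a description, and a readthrough gene, Gm28042, covers the same exons. AA467197 (chromosome 2) had 185, 180.4 and 50.2 against 8.94, 5.96 and 13.6, with 340.4, 178 and 253 in C57BL/6 (log2 3.58, adjusted p = 0.0241). The smaller changes were in Rmdn3, a tether between mitochondria and the endoplasmic reticulum, with 926, 906 and 926 against 1508, 1428 and 1829.6, and Bloc1s6, a subunit of a complex that builds melanosomes, with 849, 825 and 703 against 1189, 1200.4 and 1214.

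**Figure D4:**
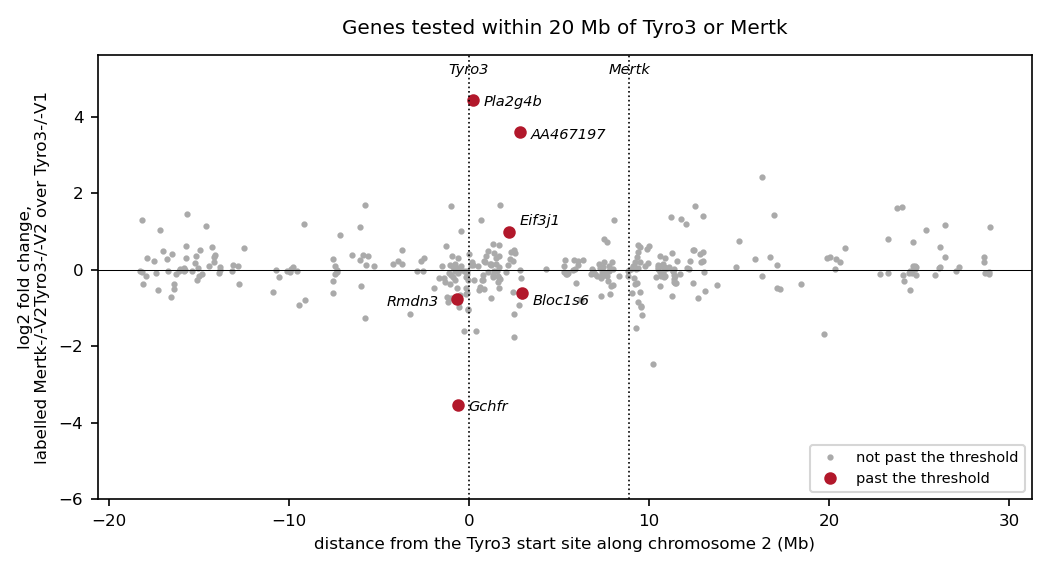
Log2 fold change of each gene tested within 20 Mb of Tyro3 or Mertk against its distance from the Tyro3 start along chromosome 2, in Mb. The 6 genes that passed (red) lie within 2.94 Mb of Tyro3, and all are nearer to Tyro3 than to Mertk.

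Eif3j1 (chromosome 2, 122028546 to 122056598), a subunit of translation initiation factor 3, had 1096, 962 and 1021 normalized counts in libraries labelled Mertk-/-V2Tyro3-/-V2, against 568, 472 and 512 in Tyro3-/-V1 (log2 0.99 ± 0.11, SE, limma adjusted p = 0.00856). Its near-identical copy Eif3j2 on chromosome 18 moved the opposite way, with 41.1, 35.9 and 50.2 against 452, 399 and 408 (log2 −3.29 ± 0.26, adjusted p = 0.000846). In C57BL/6 they averaged 989.6 ± 15.4 and 50.3 ± 16.1 (SD, n = 3), at the levels of the libraries labelled Mertk-/-V2Tyro3-/-V2. The sum of both copies was 1069 ± 69.5 against 937 ± 76.0 (SD, n = 3 each), a smaller difference than in either copy, and which locus the reads came from is uncertain. Gm3650, a gene model beside Eif3j2 that the annotation calls a pseudogene, had 8.02, 7.52 and 8.52 against 138, 139 and 149, values given as a description since it was kept only through Tyro3-/-V1. Pcna-ps2, a processed copy of Pcna on chromosome 19, had 22.0, 10.02 and 23.8 against 345, 238 and 207 (log2 −3.81, adjusted p = 0.00297), while Pcna itself was at 0.51 (adjusted p = 0.179) and the sum of both at 1270 ± 137 against 1149 ± 240 (SD, n = 3 each). Eif3j2 and Pcna-ps2 passed whichever of the 12 libraries was left out, as did Gm3650, which had to differ.

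Transcripts of other tissues varied in level between libraries, and no member of their lists passed. The summed level of 29 rod markers was 183332, 163284 and 396033 normalized counts in libraries labelled Mertk-/-V2Tyro3-/-V2 against 165628, 168114 and 223733 in Tyro3-/-V1, so that replicate 3 alone stood out, and the list's median log2 fold change of 0.44 was −0.03 without it. Cone markers summed to 11221, 11037 and 29080 against 6076, 7490 and 7902, without overlap, and their median was 1.17, or 0.58 without replicate 3. Gnb3, a transducin subunit of cones, had 1291, 1581 and 5232 against 389, 316 and 517 (log2 2.46, limma adjusted p = 0.155). The 32 tested inner retinal neuron markers had a median of 1.35, or 0.64 without that library. Lens markers summed to 464442, 317085 and 1233114 against 77253, 468344 and 156439, and striated muscle markers to 5657, 10456 and 6248 against 26733, 7159 and 25474, both with overlap. Melanocyte and Schwann markers summed to 22726, 24589 and 17280 against 24896, 40276 and 36511, without overlap, and to 24816, 22290 and 22428 in C57BL/6. The median log2 fold change of that list was −0.49. With the mean level of the retinal neuron lists as a covariate, 21 genes were higher and 20 lower, 21 of the 27 among them, and Rpe65 was not.

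**Figure D5:**
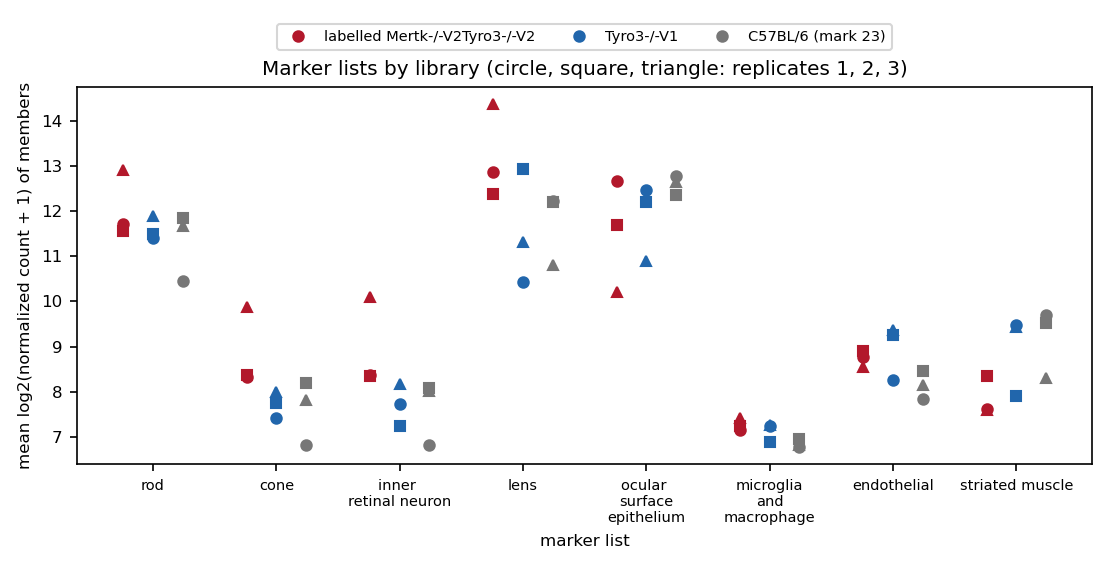
Mean of log2(normalized count + 1) over the tested members of 8 marker lists in each library, a level per list. Replicate 3 labelled Mertk-/-V2Tyro3-/-V2 (red triangles) is the highest library for rod, cone, inner retinal neuron and lens markers and the lowest for ocular surface epithelium.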

How the data were processed

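Messenger RNA of mouse RPE was measured by bulk RNA sequencing. Per the labels' protocols, polyA RNA was extracted with a column kit and sequenced as Illumina paired ends, and per the submitters' processing notes STAR and DESeq2 were used with builds GRCm38 and mm10 (no version is given). Each value in the authors' deposited table is a signal, which its name calls a normalized count. In each library they were whole multiples of a single step within 0.001 read, so reads could be recovered for count tests. The table of WT129 and Itgb5-/- libraries, normalized separately, was not used here. Of 55573 lines, 240 without a gene name, at most 0.0203% of a library's total, were left out, and 113 symbols stand on more than 1 line.

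Log2(normalized count + 1) was fitted with limma 3.58.1 in R 4.3.3, with terms for group and for the mark 23, a mean-variance trend and robust shrinkage. All 12 libraries of the table share 1 spread, with 8 residual degrees of freedom. The contrast is the libraries labelled Mertk-/-V2Tyro3-/-V2 minus Tyro3-/-V1, so fold changes are on that scale and understate those of low genes. Tests were two-sided, Benjamini-Hochberg adjustment ran over the 18682 genes tested, with a threshold of 0.05. Recovered reads of the same 12 libraries were tested with edgeR 4.0.16 and DESeq2 1.42.0, with the same terms for group and mark. Mertk, Tyro3 and Axl were also tested by exact permutation of the 6 libraries. Counting intervals cover counting error only. Positions came from GENCODE M21 on GRCm38, and 270 tested genes had no single position. No pair of replicates was a duplicate, and the fits were tested on simulated data.

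The members and the 41 gene lists were chosen with earlier results of these data known, so no list was tested as a set. The genes named are the targets, the 10 largest called rises and falls (groups apart, a group mean of 50 or more, gene models and pseudogenes left out), filled up to 10 by smallest p, and up to 4 called members or the 2 of smallest p from each list. Genes outside that rule were chosen after their values were seen, which holds for every called gene not in it. The alternatives were other pseudocounts, filters, scalings and weights, other sets of libraries, no term for the mark, a replicate block, a minimum fold change, other windows, covariates for cell mixture, and each library left out in turn. Leaving out C57BL/6 libraries and the gene-by-gene weights were added after seeing the data. Some results are not reported here.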

Additional observations from a re-analysis of the deposited data

How the results depend on the processing

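The counts of 8 higher and 19 lower genes were 0 and 2 with only the 6 libraries compared, 1 and 4 with only the 9 libraries with the mark 23, and 3 and 9 with a microglia covariate. DESeq2 called 423 and 252, array weights, which did not converge, 1242 and 582, and gene-by-gene weights 87 and 57. The higher count was 17 with no filter, 14 with quantile normalization, 13 with edgeR and 21 with a neural retina covariate. Leaving out each library in turn gave 0 to 18 higher and 3 to 32 lower. The count of 6 within 10 Mb of Tyro3 or Mertk was 0, 1, 29, 54 and 16 with only the 6 libraries, only the 9, DESeq2, array weights and gene-by-gene weights. The genes passing in all in these fits were 2, 5, 675, 1824 and 144, of 18682 tested or, with DESeq2, 16860 adjusted. With a library left out the count near the loci was 0 to 7. The Mertk difference, within the spread throughout, was 0.035 with quantile normalization, 0.075 with array weights, 0.052 with gene-by-gene weights, 0.040 with the neural retina covariate and −0.21 to 0.16 with a library left out, being 0.02 and 0.10 without replicates 1 and 3 labelled Mertk-/-V2Tyro3-/-V2 and 0.01 and 0.16 without Tyro3-/-V1 replicates 2 and 3. The Tyro3 difference was 0.31 to 0.51 with a library left out, and passed at 0.61 and 0.57 with array and gene-by-gene weights. With array weights Cd79b, a B cell gene, was at 0.13 and Mylpf, a muscle gene, at 0.14, against −0.78 and −1.70. The cause of these shifts was not tested. Eif3j2 passed in all 28 alternatives, Pcna-ps2 in 27, Eif3j1 in 26, Rab37 in 25 and Ifit1 and Ins2 in 22 each. Others passed in fewer, such as Cmpk2 in 14, Rpe65 in 13 and Bloc1s6 in 11. In the 6 fits without 1 of the compared libraries, Ifit1 and Ins2 passed in 2 each. Kcnab1, Sfrp5 and Sostdc1 passed in 1 each of these fits and Cmpk2 in 0. With the replicate number as a block, 34 genes were higher and 36 lower, the 27 among them. Deviations of same-numbered libraries correlated with r = 0.60, 0.06 and 0.56, and those of differently numbered ones with −0.73 to 0.29. Whether the numbers pair samples is not known. The labels do not say what they share, so the main fit held no block. With 3 libraries a group, small changes were not detectable.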

Other observations

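Clustered histone genes, whose messages package new DNA, had a median log2 fold change of −0.59 over 13 tested genes. None passed with limma or edgeR, and 9 were lower at an unadjusted p below 0.05, beside 5.63% of all genes. DESeq2 called 4 lower, beside 1.49% of the genes it adjusted. Hist1h1c, a linker histone gene, had 1957, 2164 and 1678 normalized counts in libraries labelled Mertk-/-V2Tyro3-/-V2, against 2504, 2482 and 2816 in Tyro3-/-V1, and 2782, 3225 and 2882 in C57BL/6 (log2 −0.43, limma adjusted p = 0.16). The 35 cell cycle genes had a median of −0.40 and 0 calls with limma or edgeR, and Ccnd1, cyclin D1, had 3085, 2951 and 2713 against 4217, 4102 and 4499 (log2 −0.55, adjusted p = 0.0794). Neither gene had overlapping groups, but the mean log2 level of the cell cycle list did overlap, at 9.07, 7.44 and 7.51 against 9.19, 8.48 and 7.48. The ocular surface epithelium markers stood at 12.7, 11.7 and 10.2 against 12.5, 12.2 and 10.9 in the same libraries, and their part in the cell cycle levels was not tested.

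All 13 transcripts of the mitochondrial genome had a log2 fold change below 0, with a median of −0.26. Their mean log2 level was 13.4, 13.3 and 13.2 in libraries labelled Mertk-/-V2Tyro3-/-V2 against 13.7, 13.6 and 13.9 in Tyro3-/-V1, and 13.3, 13.3 and 13.5 in C57BL/6, so Tyro3-/-V1 was the high group. Of the 13, 5 were lower at an unadjusted p below 0.05, beside 5.63% of all genes, and none passed with limma or edgeR. DESeq2 called 2 lower, beside 1.49% of the genes it adjusted. The cytochrome oxidase subunit transcript mt-Co3 had 1605, 1457 and 1281 normalized counts in libraries labelled Mertk-/-V2Tyro3-/-V2 against 2650.3, 2296 and 2532 in Tyro3-/-V1, and 1893, 1933 and 2011 in C57BL/6 (log2 −0.79, limma adjusted p = 0.154). The 33 nuclear genes of the respiratory chain had a median of −0.12 and the 26 glycolysis genes one of 0.26. Of these genes 0 were called by limma or edgeR. DESeq2 called 3 higher and 1 lower, beside 2.51% and 1.49% of the genes it adjusted. Aldoc, a brain-type aldolase, had 7847, 9877 and 11772 against 4492, 5104 and 5751 (log2 0.93, adjusted p = 0.0734). The 40 engulfment and phagosome genes had a median of −0.11, and Src, a kinase in the uptake pathway, had a log2 difference of −0.57 (adjusted p = 0.136).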
